A study of Homo sapiens with 20 samples.

Results

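The genes described here encode the proteasome, its regulatory particles and the chaperones that assemble it, in MDA-MB-468 cells treated with epidermal growth factor (EGF). The members are the 50 protein-coding genes, of 60271 genes listed, whose symbol starts with PSMA to PSMG followed by a number. The name rule also takes 47 rows that are not protein coding, which were kept apart. MDA-MB-468 is an established epithelial line of triple-negative breast cancer. Its cells were starved of serum and then received EGF at 50 ng/mL for 12, 24, 48 or 72 h. The control cells received none. The protocol gives a day without serum before EGF. Each of the 5 groups had 4 biological replicates of the one line, 20 RNA sequencing libraries in all. All groups were starved, and all were plated and collected at the same moments, so that the groups differ in when EGF was added. Time without serum before EGF would then differ between groups too, and it is not given for each group. The question behind the series is how EGF, which drives an epithelial to mesenchymal transition in this line, changes its gene expression over time.

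The proteasome degrades proteins marked with ubiquitin. Its barrel, the 20S core, has outer rings of alpha subunits (PSMA genes) and inner rings of beta subunits (PSMB genes), of which PSMB5, PSMB6 and PSMB7 carry the proteolytic sites. Interferon and inflammatory signals induce PSMB8, PSMB9 and PSMB10, which take those places in newly made immunoproteasomes and alter the peptides offered on MHC class I. The 19S particle opens the core and unfolds substrates, with ATPases (PSMC genes) at its base and non-ATPase subunits (PSMD genes) that bind, deubiquitinate and hold the substrate. PSME1 and PSME2 form the PA28 alpha-beta cap, PSME3 forms the nuclear PA28 gamma cap, PSME4 is PA200, and PSMF1 (PI31) was described as an inhibitor.

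Libraries held 15611961 to 25856953 counts. In all 20 libraries the lowest correlation of log2 expression with a library of the same group (0.978 or more) exceeded the highest with any other library (0.975 or less). Replicates varied 3.53 to 57.5 times as much as counting alone would give, so no library was a copy of another. The values do not exclude a library that differs within its group. EGF 48 h replicate 2 varied 17.0, 57.5 and 38.3 times against replicates 1, 3 and 4, and control replicates 2 and 3 varied 50.8 times. Mitochondrially encoded genes took 16.9% of counts in EGF 48 h replicate 2 and 9.83% to 12.1% in the other 48 h libraries. Levels are given as CPM, counts scaled to a common library size after TMM scaling of the library totals (the trimmed mean of M values, edgeR), and differences as log2 fold changes ± SE from edgeR's quasi-likelihood test, called at an adjusted p under 0.05 over the 16522 genes tested. EGFR, the receptor of EGF, was at 3474 ± 103 CPM in control and 11752 ± 323 CPM at 12 h (SD, n = 4). Epithelial markers were present in every group, with EPCAM at group means of 144 to 215 CPM, and PGR had no counts. The leukocyte marker PTPRC stayed at or under 0.304 CPM in every library, while PECAM1 (0.374 to 4.20 CPM) and COL1A1 (6.18 to 13.9 CPM) had low group means that moved with EGF; their part in the results was not tested. Mitochondrially encoded genes took 9.41% ± 1.68 of counts at 12 h and 15.04% ± 1.88 at 72 h, against 10.9% ± 1.84 in control (SD, n = 4), and the part of this difference in the results was not tested either. In bulk RNA, fewer cells that express a gene and less RNA per cell cannot be told apart.

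Of the 50 members, 48 passed the filter on low counts and were tested. PSMA8, a testis-enriched alpha subunit, had at most 3 counts in any library, and PSMB11, the catalytic subunit of thymic epithelium, had 0. At 12 h, 26 of the 48 were higher than control and 8 were lower, or 54.2% and 16.7%, against 32.9% and 36.5% of all genes tested. In either direction 70.8% of the members were called, close to the 69.4% of all genes. At 24 h, 17 were higher and 7 lower (29.2% and 29.6% of all genes, 58.8% in either direction). At 48 h the balance was the other way, with 3 higher and 15 lower (24.0% and 21.8% of all genes, 45.8% in either direction), and at 72 h 7 were higher and 20 lower (30.6% and 31.0% of all genes, 61.6% in either direction). These 4 comparisons share the 4 control libraries. The median difference of the 48 members from control was 0.21, 0.09, -0.09 and -0.11 on the log2 scale at 12, 24, 48 and 72 h, beside -0.05, -0.01, 0.01 and -0.01 for all genes tested.

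The members moved little in size. Only 6 of the 48 were both called and beyond 1.5-fold at 12 h (12.5%), where 46.6% of all genes tested were. These were PSMC4, PSMD11 and PSME3, which were higher, and PSMB9, PSMD10 and PSME3IP1, which were lower. The counts at 24, 48 and 72 h were 2, 2 and 5 members, beside 33.7%, 22.0% and 35.8% of all genes. A count of calls past 1.5-fold is not a test of that fold: tested against 1.5-fold itself, only 2 members passed at 12 h, none at 24 and 48 h, and 1 at 72 h, where 34.8%, 21.0%, 11.6% and 23.6% of all genes did. A total of 3 members, PSMB4, PSMB10 and PSME2, were called at no time (named after their values were seen), as were 10.2% of all genes tested. Another 5 were called at all 4 times, with PSMB7 and PSMC3IP higher and PSMA4, PSMD4 and PSMD5 lower, beside 11.2% of all genes higher and 10.4% lower at all 4 times. Of these calls, those of PSMB7 at 48 and 72 h, PSMC3IP at 12 h and PSMD4 at 48 h were lost on leaving out certain single libraries (adjusted p = 0.055 to 0.088). Those of PSMA4 at 12 and 24 h were lost in the same way (adjusted p up to 0.135 and 0.070). By library size, PSMB7 at 72 h and PSMC3IP at 12 h were not called. With the factors per gene that the deposited normalised values carry, PSMD5 at 72 h was 0.10 and not called (adjusted p = 0.717). Another 12 of the 48 members were called in opposite directions at different times, as were 2148 of the 16522 genes tested.

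**Figure D1:**
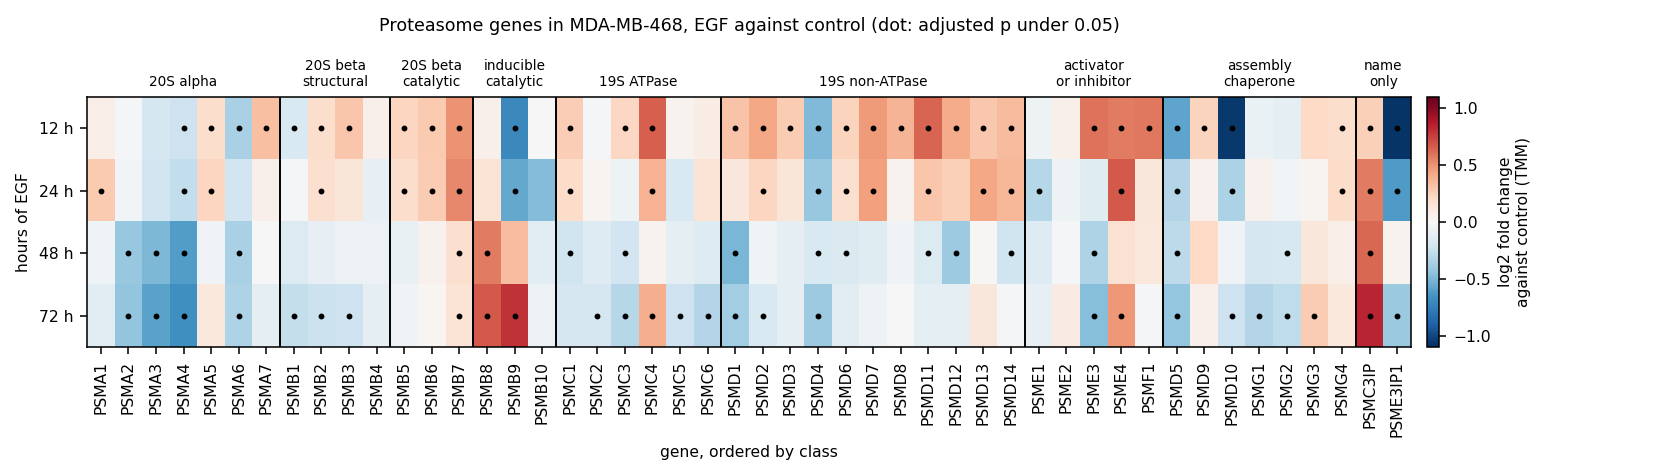
Each cell is the log2 fold change of one of the 48 tested genes (columns, grouped by class) at one time of EGF (rows) against control under TMM scaling, with dots for an adjusted p under 0.05. The 12 h row is mostly red (26 called higher, 8 lower) and the 72 h row mostly blue (7 higher, 20 lower), and scaling by library size alone turns the 12 h split to 7 higher and 19 lower.

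The split at 12 and 24 h depended on the scaling. TMM factors were 0.862 to 0.898 at 12 h and 1.06 to 1.08 in control. Without them, scaled by library size alone, 7 members were called higher and 19 lower at 12 h, and 8 higher and 16 lower at 24 h. Under the same scaling 21.7% of all genes were higher and 50.1% lower at 12 h, and 22.2% and 38.9% at 24 h. Upper-quartile scaling gave 11 higher and 13 lower at 12 h (26.1% and 44.2% of all genes), while DESeq2 size factors gave 26 and 6 (33.9% and 35.4% of all genes). Library-size scaling moved the median of all genes tested at 12 h by -0.28, to -0.34, and the median of the members to -0.08, so the members' median stayed above that of all genes under both scalings. As a plain share of counts, the members together took 0.552% ± 0.0278 of each control library and 0.501% ± 0.00600 at 12 h (SD, n = 4), whereas on the TMM scale their sum was 5161 ± 227 CPM in control and 5701 ± 95.8 CPM at 12 h. By library size, 4 members were higher and 12 lower at 48 h (24.3% and 20.4% of all genes). At 72 h, 5 were higher and 26 lower by library size (26.7% and 35.2% of all genes). At both times the members' lower calls were in the majority under every scaling tried. Ratios of genes within a library, given below for the catalytic subunits and for the 19S and 20S groups, do not depend on the scaling.

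**Figure D2:**
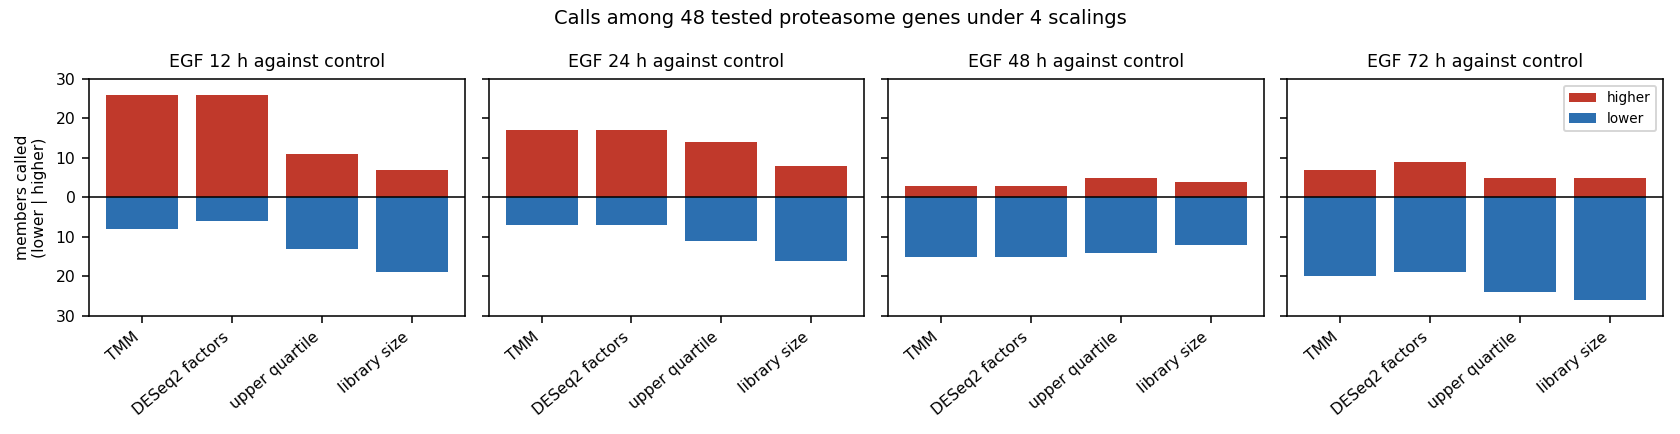
Bars give how many of the 48 tested genes were called higher (up, red) or lower (down, blue) than control under TMM, DESeq2 size factors, upper-quartile and library-size scaling, one panel per time of EGF. The 12 h split runs from 26 higher and 8 lower under TMM to 7 higher and 19 lower by library size, and the 48 h and 72 h panels are mostly lower under all 4.

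Between successive times, most members differed in the step from 24 to 48 h. In that step 27 members fell and 6 rose (24.3% of all genes tested fell and 25.9% rose), with a median of -0.20 against 0.02 for all genes. By library size the step held 13 lower and 10 higher calls, beside 14.1% of all genes lower and 36.0% higher. From 12 to 24 h, 12 fell and 5 rose (25.9% and 27.9% of all genes), a split that turned to 4 lower and 15 higher by library size (16.9% and 37.0% of all genes) and 6 lower and 15 higher by upper quartile (18.4% and 35.8% of all genes). From 48 to 72 h only 8 members were called, 5 higher and 3 lower (17.9% of all genes in each direction), and library-size scaling gave 3 higher and 13 lower (12.9% and 25.3% of all genes). The steps share libraries with one another and are not independent.

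Among the alpha subunits that form the outer rings and the gate of the core, the later times were lower. At 72 h 4 of 7 tested genes were called lower and none higher, with a median of -0.34, as at 48 h (4 lower, median -0.36), while at 12 h 2 were higher and 2 lower (none higher and 5 lower by library size). Of all genes, 31.0% were lower at 72 h and 21.8% at 48 h. The shares at 12 h were 32.9% higher and 36.5% lower (21.7% and 50.1% by library size). PSMA4 fell furthest in this class. Its levels were 57.5, 42.1, 59.7 and 55.7 CPM in the 4 control libraries and 33.0, 37.2, 33.0 and 31.0 CPM at 72 h. All 72 h libraries lay under all control libraries, a log2 fold change of -0.68 ± 0.10 (adjusted p = 2.1e-06), and at 48 h the change was -0.61 ± 0.10. The lower calls of PSMA4 at 12 and 24 h (-0.23 and -0.27) were lost on leaving out any 1 of several libraries, control replicates 1, 3 and 4 among them, with adjusted p up to 0.135 and 0.070.

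PSMA7 was the alpha gene with the largest rise, and it was called only at 12 h. It was at 62.1, 69.7, 53.6 and 57.6 CPM in control and at 80.7, 72.2, 76.8 and 75.8 CPM at 12 h. The groups did not overlap, and the change was 0.33 ± 0.08 (adjusted p = 0.00084), but 0.04 and not called by library size. PSMA2 and PSMA3, named after their values were seen, fell by 0.43 and 0.59 on the log2 scale at 72 h, in 4 of 4 libraries under every control library.

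Of the 4 beta subunits without a proteolytic site (PSMB1 to PSMB4), 3 were called lower at 72 h (31.0% of all genes), with a median of -0.23. At 12 h 2 were higher and 1 lower (32.9% and 36.5% of all genes). By library size this became none higher and 2 lower (21.7% and 50.1% of all genes). PSMB3 was at 144, 134, 119.8 and 121 CPM in control, at 167, 156, 155 and 163 CPM at 12 h and at 112, 105, 113 and 112 CPM at 72 h. Every 12 h library was above and every 72 h library under all controls. The changes were 0.31 ± 0.07 (adjusted p = 0.00022, and 0.02 and not called by library size) and -0.23 ± 0.07 (adjusted p = 0.0038). PSMB1 had 106, 89.1, 104 and 92.8 CPM in control and 75.9, 88.2, 78.8 and 83.7 CPM at 72 h, which did not overlap, and changed by -0.26 ± 0.07 (adjusted p = 0.0031). PSMB4 stayed within -0.11 and 0.05 of control and was not called under TMM, but by library size it was lower at 12, 24 and 72 h (-0.23, -0.23 and -0.19).

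The constitutive catalytic genes PSMB5 (chymotrypsin-like site), PSMB6 (caspase-like site) and PSMB7 (trypsin-like site) were all called higher at 12 and 24 h under TMM, 3 of 3 each time, and all fell between 24 and 48 h. By library size only PSMB7 was called higher at 12 and 24 h, and only 1 of the 3 fell in that step. Of all genes, 32.9% and 29.2% were higher at 12 and 24 h (21.7% and 22.2% by library size). In the step 24.3% of all genes fell (14.1% by library size). PSMB7 (ENSG00000136930, chromosome 9, 124353466 to 124415444, minus strand, hg38) moved furthest. It was at 71.3, 67.2, 63.6 and 63.0 CPM in control, at 93.8, 90.4, 94.2 and 95.0 CPM at 12 h and at 99.6, 95.1, 89.7 and 98.6 CPM at 24 h. The EGF libraries at both times lay above all controls. PSMB7 changed by 0.49 ± 0.06 at 12 h (adjusted p = 6.7e-08) and 0.53 ± 0.06 at 24 h (adjusted p = 3.6e-08), and both calls stood under all 3 other scalings, with 0.21 the lowest value at 12 h.

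PSMB5 was at 39.2, 33.7, 33.9 and 33.8 CPM in control and at 42.7, 41.2, 41.7 and 39.7 CPM at 12 h. The highest control library came close to the lowest 12 h library without overlap, and the change was 0.23 ± 0.06 (adjusted p = 0.0026) under TMM but -0.05 and not called by library size. PSMB6 was at 23.5, 24.6, 21.1 and 23.0 CPM in control and at 30.01, 26.6, 27.1 and 28.9 CPM at 12 h, a change of 0.29 ± 0.08 (adjusted p = 0.0016) that was 0.00 and not called by library size. By 48 h PSMB5 (32.0 to 34.2 CPM) and PSMB6 (22.6 to 26.2 CPM) overlapped their control ranges and were not called.

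**Figure D3:**
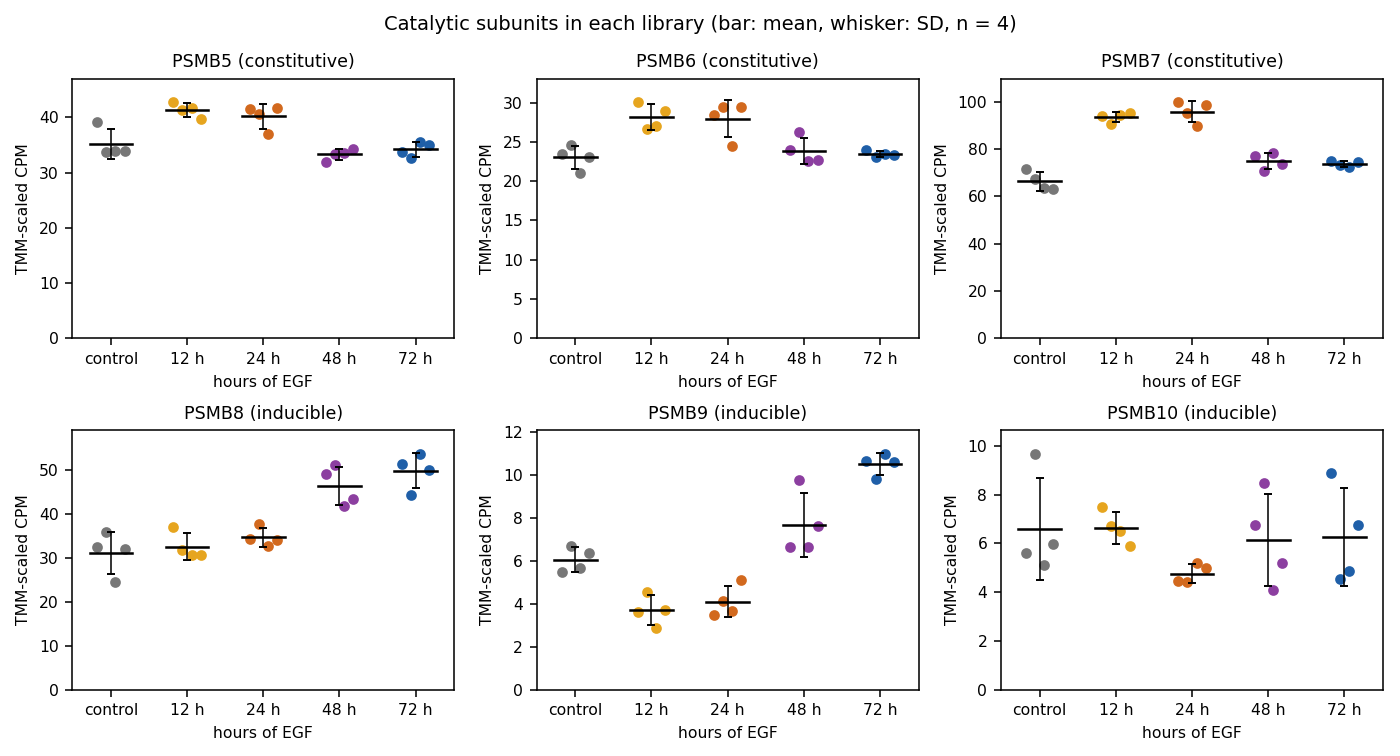
Points are TMM-scaled CPM of the 3 constitutive (top) and 3 inducible (bottom) catalytic genes in each library, bars the mean and whiskers the SD of 4 libraries, by hours of EGF. PSMB7 peaks at 12 and 24 h, PSMB8 is higher from 48 h, and PSMB9 is under control at 12 and 24 h and above it at 72 h, while the 12 h rises of PSMB5 and PSMB6 are not called by library size.

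The inducible catalytic genes followed another course. PSMB8 (ENSG00000204264, chromosome 6, 32840717 to 32844703, minus strand), which replaces PSMB5, was called higher at 48 and 72 h only. It had 32.5, 35.9, 24.5 and 32.0 CPM in control, 49.1, 51.1, 41.9 and 43.5 CPM at 48 h and 51.4, 44.3, 53.7 and 50.0 CPM at 72 h. The late libraries were above all controls, and the changes were 0.57 ± 0.10 (adjusted p = 4.7e-05) and 0.68 ± 0.10 (adjusted p = 2.5e-06). At 12 h it was at 30.6 to 37.1 CPM, within reach of control, with a change of 0.06 that was not called under TMM and was -0.23 (adjusted p = 0.047) by library size. The antisense gene PSMB8-AS1 covers 20.6% of the exon bases of PSMB8, and whether strand was used in counting is not given in the sources used here.

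PSMB9 (ENSG00000240065, chromosome 6, 32844136 to 32859585, plus strand), which replaces PSMB6, fell first and rose later. It was at 5.48, 6.73, 5.68 and 6.39 CPM in control and at 3.64, 4.58, 2.87 and 3.73 CPM at 12 h. It was at 3.51, 4.12, 3.65 and 5.12 CPM at 24 h, and at 10.7, 9.84, 11.0 and 10.6 CPM at 72 h. Each of these EGF groups was clear of the control range. The changes were -0.71 ± 0.15 at 12 h (adjusted p = 0.00020), -0.56 ± 0.15 at 24 h (adjusted p = 0.0025) and 0.79 ± 0.14 at 72 h (adjusted p = 3.0e-05). The rise began between 24 and 48 h (0.90 ± 0.15, adjusted p = 2.4e-05) and went on from 48 to 72 h (0.46 ± 0.14, adjusted p = 0.012). PSMB9 rests on 52 to 277 counts a library. Overlap with genes on the same strand, PSMB8-AS1 foremost, covers 5.66% of its exon bases, and on the opposite strand, PSMB8 foremost, 4.5%. Whether shared reads bear on its course was not tested.

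PSMB10 (ENSG00000205220, chromosome 16, 67934502 to 67937087, minus strand), which replaces PSMB7, was called at no time under TMM. It had 5.63, 9.67, 5.12 and 5.96 CPM in control and 4.45, 4.41, 5.19 and 4.98 CPM at 24 h, its lowest group. The 24 h change of -0.48 ± 0.23 had an adjusted p of 0.076, and of 0.018 by library size (-0.62). Control replicate 2 was well above the other 3 control libraries, and a gene on the same strand covers 34.8% of the exon bases of PSMB10.

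Per kilobase of transcript, where levels of different genes can be set side by side, PSMB8 and PSMB5 stood at 27.8 and 27.2 CPM per kb in control, and at 44.3 and 26.4 CPM per kb at 72 h. PSMB9 and PSMB6 were at 7.76 and 27.1 CPM per kb in control, at 4.74 and 33.0 at 12 h and at 13.5 and 27.5 at 72 h. PSMB10 was the lowest of the 6 at 5.41 CPM per kb in control, where PSMB7 was the highest at 67.6. The order of the 6 genes was led by PSMB7 in all 5 groups.

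Each inducible gene was set against its constitutive counterpart by the ratio of their RNA counts within each library. PSMB9 to PSMB6 was 0.264 ± 0.0202 in control, 0.133 ± 0.0283 at 12 h and 0.148 ± 0.0212 at 24 h (SD, n = 4). It was 0.321 ± 0.0429 at 48 h and 0.450 ± 0.0176 at 72 h. The log2 differences from control were -1.01, -0.85, 0.28 and 0.77, and each had an adjusted p of 0.049 over the 12 ratio tests (two-sided exact permutation test, n = 4 against 4). That is the adjusted value of 0.0286, the smallest p that 4 against 4 libraries allow, so these tests show groups without overlap and no more. At 48 h the lowest EGF ratio (0.279) barely cleared the highest control ratio (0.278), and in the deposited normalised values that difference, 0.22, had an adjusted p of 0.267 (exact permutation test). All ratio calls, those below included, share the adjusted value of 0.049, which depends on how many tests reach the smallest p. They therefore stand or fall together, and the narrow margin at 48 h bears on all of them.

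PSMB8 to PSMB5 was 0.890 ± 0.147 in control, and over the same times it was 0.786 ± 0.0579, 0.865 ± 0.0533, 1.40 ± 0.157 and 1.46 ± 0.0770. It was higher at 48 and 72 h by 0.66 and 0.72 on the log2 scale (adjusted p = 0.049 each, exact permutation test), and its 12 and 24 h values overlapped control (adjusted p = 0.343 and 0.743, exact permutation test). PSMB10 to PSMB7 was at 0.0998 ± 0.0304 in control and 0.0501 ± 0.00594 at 24 h, lower by 0.96 on the log2 scale (adjusted p = 0.049, exact permutation test). Its difference at 12 h was -0.44 (adjusted p = 0.0857, exact permutation test), and those at 48 and 72 h were smaller and not called. Summed over the 3 genes of each kind, the inducible to constitutive ratio had ranges of 0.298 to 0.416 in control, 0.245 to 0.290 at 12 h, 0.249 to 0.280 at 24 h, 0.392 to 0.532 at 48 h and 0.455 to 0.535 at 72 h. The 12 and 24 h libraries were all under control, the 72 h libraries all above, and the 48 h range overlapped it.

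**Figure D4:**
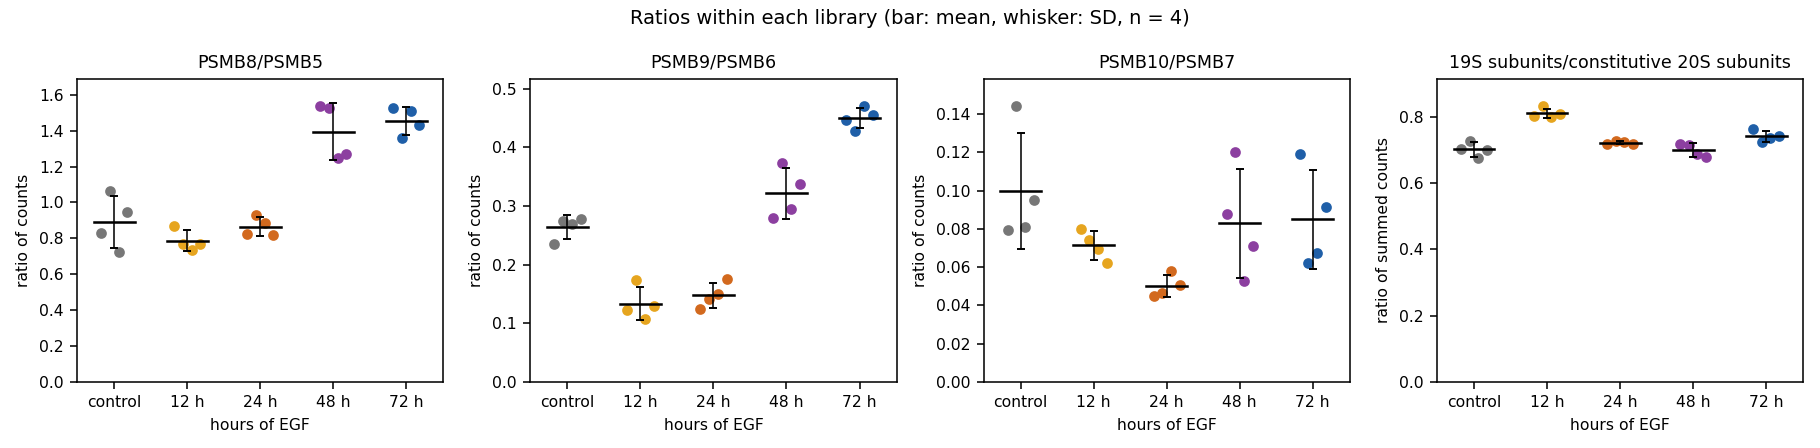
Points are ratios of counts within each library for the 3 pairs of inducible to constitutive catalytic genes and for all 19S to all constitutive 20S subunits, with bars for the mean and whiskers for the SD of 4 libraries. PSMB9 to PSMB6 drops from 0.264 in control to 0.133 at 12 h and reaches 0.450 at 72 h, PSMB8 to PSMB5 moves up only at 48 and 72 h, and 19S to 20S is highest at 12 h (0.811).

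The stretches of promoter below are a selection of the matches found in genes of this pathway. They come from RefSeq windows (GRCh38.p14) that reach 250 bases before a transcription start, which were found for 44 of the 50 members in 55 windows. Capitals mark a match on either strand to TTCNNNGAA (the gamma-activated form), TGACNNNGC (the antioxidant response form) or the interferon-stimulated form (TTTC, any 2 bases, then TTTC), and each sequence reads towards its gene. Other members with such a match are not shown, among them PSMD5 and PSME1 (TGACNNNGC) and PSMA4, PSMB4, PSME2 and PSMG4 (interferon-stimulated form). At 12 h PSMD3, PSMD12 and PSME4 were all called higher and PSMD5 lower.
PSMB8 (chr6:32844094-32844122, minus strand, TTCNNNGAA): aactgtccttTTCTCGGAAaaggcagggg
PSMB9 (chr6:32854019-32854077, plus strand, TGACNNNGC): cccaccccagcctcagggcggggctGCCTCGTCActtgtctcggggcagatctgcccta
PSMB10 (chr16:67936852-67936881, minus strand, interferon-stimulated form): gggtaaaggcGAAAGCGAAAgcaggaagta
TAP1 (chr6:32853813-32853842, minus strand, interferon-stimulated form): ccgctttcgaTTTCGCTTTCccctaaatgg
PSMD3 (chr17:39980760-39980788, plus strand, TGACNNNGC): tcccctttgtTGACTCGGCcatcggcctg
PSMD12 (chr17:67366709-67366767, minus strand, TGACNNNGC): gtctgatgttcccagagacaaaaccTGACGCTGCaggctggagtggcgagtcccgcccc
PSME4 (chr2:53971009-53971037, minus strand, TGACNNNGC): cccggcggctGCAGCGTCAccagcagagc
TTCNNNGAA stood in 7 of the 55 windows (12.7%) and in 6.57% of all 35116 windows of that reach. TGACNNNGC stood in 13 (23.6%) and in 10.9% of all, and the interferon-stimulated form in 5 (9.09%) and in 3.02% of all. In TAP1 the marked match overlaps another match that lies further from the start. These matches are letters in a window and describe no binding.

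TAP1, a subunit of the transporter that supplies peptides for MHC class I, lies beside PSMB9 on the other strand. Between their starts in the RefSeq promoter table lie 488 bases, and TAP1 moved apart from PSMB9 at 12 and 24 h. The PSMB9 positions given above, from GENCODE, reach further upstream. TAP1 was at 22.8, 23.8, 17.5 and 20.04 CPM in control and at 49.9, 47.7, 46.0 and 47.9 CPM at 12 h, a rise of 1.19 ± 0.09 (adjusted p = 6.7e-11) at the time when PSMB9 was lowest. At 72 h TAP1 was at 36.0 to 39.2 CPM (0.81 ± 0.09, adjusted p = 6.6e-08). Its partner TAP2 rose from 27.6 to 31.9 CPM in control to 139.8 to 151 CPM at 12 h (2.31 ± 0.09, adjusted p = 9.0e-17), though another gene on the same strand covers 32.3% of its exon bases. The interferon-response factor IRF1 was at 12.8 to 20.2 CPM in control and 31.6 to 41.0 CPM at 12 h (1.24 ± 0.13, adjusted p = 8.3e-09), fell under control at 24 h (-0.38 ± 0.14) and was above it at 48 h (0.50 ± 0.13), where 2 of 4 libraries were above all controls. TAP1, TAP2 and IRF1 were called higher at 72 h together with PSMB8 and PSMB9.

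The 19S regulatory particle gave 13 of the 26 higher calls at 12 h. Of the 11 non-ATPase subunits, 10 were called higher and 1 lower, with a median of 0.34, which by library size became 2 higher and 1 lower with a median of 0.06. Of the 6 ATPases 3 were higher and none lower (1 higher and 2 lower by library size). Of all genes, 32.9% were higher and 36.5% lower at 12 h (21.7% and 50.1% by library size). Between 24 and 48 h, 9 of the 11 non-ATPases and 5 of the 6 ATPases fell (7 and 2 by library size). Of all genes, 24.3% fell in that step (14.1% by library size). At 72 h 3 non-ATPases and 4 ATPases were lower than control, beside 31.0% of all genes.

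The ratio of 19S to constitutive 20S counts within a library does not depend on scaling. It was 0.704, 0.729, 0.676 and 0.701 in the control libraries and 0.803, 0.832, 0.801 and 0.809 at 12 h. The 12 h libraries were all above control, at 115.5% of the control mean. At 24 h the ratio was 0.719 to 0.727 and at 48 h 0.678 to 0.719, both overlapping control, and at 72 h it was 0.723 to 0.764, which overlapped the highest control library. The genes summed were chosen by class alone and the ratio has no test here.

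PSMD11 (ENSG00000108671, chromosome 17, 32444261 to 32483318, plus strand), a lid subunit, rose furthest among the non-ATPases. It was at 97.8, 92.2, 91.0 and 89.8 CPM in control, at 144, 147, 142 and 146 CPM at 12 h and at 107, 117, 114 and 119 CPM at 24 h. Both groups were clear of control. The changes were 0.64 ± 0.05 (adjusted p = 2.0e-10) and 0.30 ± 0.05 (adjusted p = 3.6e-05). At 48 h it had 85.7, 79.2, 86.1 and 83.2 CPM, a change of -0.15 ± 0.05 (adjusted p = 0.026) whose call was lost without control replicate 1 or without EGF 48 h replicate 2 or 4 (adjusted p = 0.053 to 0.084), and with the deposited factors per gene the change was -0.013 (adjusted p = 0.933).

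PSMD1, the large scaffold of the base, fell furthest. It was at 125, 93.5, 116 and 99.6 CPM in control and at 71.8, 79.1, 79.1 and 77.0 CPM at 48 h, a change of -0.50 ± 0.08 (adjusted p = 8.1e-06) without overlap. At 12 h it was at 132 to 137 CPM, a change of 0.31 ± 0.07 (adjusted p = 0.00077) that was 0.03 and not called by library size. This rise also depended on the table used: with the factors per gene that the deposited normalised values carry it was -0.20 (adjusted p = 0.278). PSMD12 moved the other way between tables at 12 h, from 0.40 to 0.81, and 5 of the 48 members shifted by more than 0.3 at some time.

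PSMC4 (ENSG00000013275, chromosome 19, 39971005 to 39981441, plus strand), an ATPase of the base ring, rose at 12, 24 and 72 h. It was at 127, 121, 111 and 109.9 CPM in control, at 189, 184, 184 and 183 CPM at 12 h and at 165, 148, 151 and 154 CPM at 72 h. Neither EGF group overlapped control, and the changes were 0.66 ± 0.06 (adjusted p = 4.7e-10) and 0.40 ± 0.06 (adjusted p = 2.3e-06). At 48 h it was back at 119.8 to 122 CPM, within the control range. PSMC6, another ATPase, was at 57.9, 53.9, 79.2 and 69.3 CPM in control and 48.4, 53.9, 50.7 and 55.0 CPM at 72 h, a change of -0.32 ± 0.10 (adjusted p = 0.0055) with 3 of 4 libraries under all controls.

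PSMD4, the ubiquitin receptor Rpn10, was the 1 non-ATPase that was lower at 12 h, and it is named here after its values were seen. It was at 111, 107, 99.4 and 102 CPM in control and at 74.3, 72.5, 73.7 and 79.0 CPM at 12 h. The change was -0.49 ± 0.06 (adjusted p = 1.6e-07), and the later changes of -0.42, -0.17 and -0.40 were also called, with 4 of 4 libraries under all controls each time.

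The activators did not move as one. PSME1 and PSME2, which the same signals induce as the immunoproteasome, stayed near control. PSME1 was at 189, 199, 153 and 166 CPM in control and at 151, 138, 138 and 142 CPM at 24 h, its only call (-0.31 ± 0.07, adjusted p = 0.00046), and by library size it was also lower at 12 h (-0.34). PSME2 had group means of 88.3 to 97.6 CPM, changed by -0.05 to 0.09 and was not called under TMM, although by library size it was called lower at 12 h (-0.23, adjusted p = 0.0025) and at 24 h (-0.20, adjusted p = 0.011).

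PSME3, the nuclear cap, was high at 12 h only. Its levels were 149, 153, 133 and 137 CPM in control, 219, 209, 223 and 213 CPM at 12 h and 109, 95.2, 105 and 102 CPM at 72 h. The 12 h libraries were all above and the 72 h libraries all under control. PSME3 changed by 0.60 ± 0.06 at 12 h (adjusted p = 5.7e-09), by -0.34 ± 0.06 at 48 h and by -0.47 ± 0.06 at 72 h (adjusted p = 4.0e-07), and fell by 0.73 ± 0.06 between 12 and 24 h. With the deposited factors per gene the 48 h change of PSME3 was -0.16 and not called (adjusted p = 0.234).

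PSME4, the PA200 cap linked to acetylated histones, was high at 12, 24 and 72 h. It was at 146, 159, 175 and 171 CPM in control, at 225, 247, 244 and 249.6 CPM at 12 h and at 245, 251, 283 and 259 CPM at 24 h. These groups did not overlap control, with changes of 0.57 ± 0.07 (adjusted p = 3.4e-07) and 0.67 ± 0.07 (adjusted p = 4.3e-08). It fell to 160.5 to 206 CPM at 48 h and rose again to 220.3 to 239 CPM at 72 h (0.48 ± 0.07, adjusted p = 6.0e-06).

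PSMF1 was at 110.4, 126, 86.7 and 106 CPM in control and at 168, 159.6, 158 and 157 CPM at 12 h. The groups were apart, with a change of 0.58 ± 0.09 (adjusted p = 4.5e-06), and at 24 to 72 h its changes of -0.02 to 0.12 were not called. The 12 h calls of PSME3, PSME4 and PSMF1 stood under every scaling, with lowest values of 0.31, 0.29 and 0.30.

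**Figure D5:**
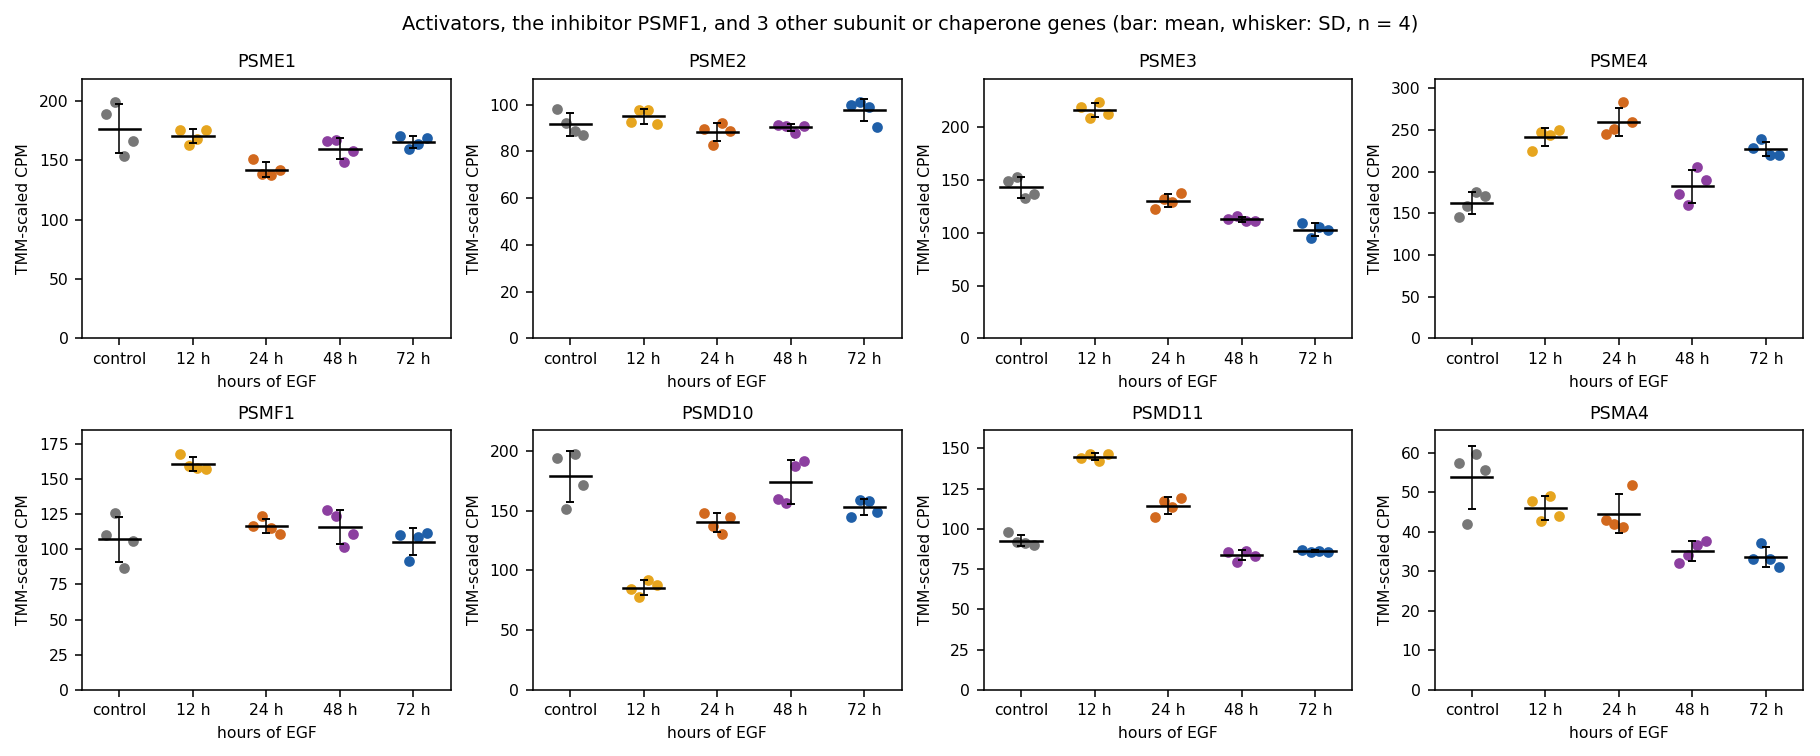
Points are TMM-scaled CPM in each library for the activators PSME1 to PSME4, PSMF1, the chaperone PSMD10, the lid subunit PSMD11 and the alpha subunit PSMA4, with bars for the mean and whiskers for the SD of 4 libraries. PSME3, PSMF1 and PSMD11 peak at 12 h, where PSMD10 is lowest (85.6 CPM against 179 in control), and PSMA4 steps down to 35.1 and 33.6 CPM at 48 and 72 h.

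Of the 7 assembly chaperones (PSMD5, PSMD9 and PSMD10 for the 19S base, PSMG1 to PSMG4 for the core), 2 were higher and 2 lower at 12 h (none higher and 4 lower by library size) and 4 were lower and 1 higher at 72 h. Of all genes, 32.9% were higher and 36.5% lower at 12 h (21.7% and 50.1% by library size). The shares at 72 h were 31.0% lower and 30.6% higher. PSMD10 (ENSG00000101843, chromosome X, 108084207 to 108091618, minus strand), also known as gankyrin, had the largest fall of the proteasome chaperones and subunits. It was at 194, 151, 198 and 172 CPM in control and at 84.8, 77.7, 91.9 and 88.2 CPM at 12 h. The 12 h libraries were all far under control, at -1.06 ± 0.08 (adjusted p = 9.2e-11). At 24 h PSMD10 was at 131 to 148 CPM (-0.35 ± 0.08), and at 48 h it was back at 156 to 192 CPM and not called (-0.04). At 72 h it was at 145 to 159 CPM and called lower (-0.22 ± 0.08, adjusted p = 0.023), a call that was lost without 1 of several libraries (adjusted p up to 0.082).

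PSMG3 was the chaperone gene with the largest rise, of 0.28 ± 0.12 at 72 h (adjusted p = 0.047). It was at 23.8, 28.1, 17.8 and 19.6 CPM in control and 27.9, 24.6, 27.3 and 28.2 CPM at 72 h, which overlapped. The call was lost without control replicate 3 (adjusted p = 0.182) and without several other single libraries, and the change was -0.03 with the deposited factors per gene. Summed, the chaperones stood at 0.278 to 0.310 of the constitutive 20S counts in control and at 0.219 to 0.226 at 12 h, which did not overlap. Without PSMD10 the ranges were 0.205 to 0.221 and 0.183 to 0.188.

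The name rule also takes 2 genes that are not proteasome parts. PSMC3IP, a partner of meiotic recombinases, was called higher at all 4 times, from 6.72 ± 0.428 CPM in control to 12.0 ± 0.866 CPM at 72 h (0.84 ± 0.10, adjusted p = 5.8e-08). PSME3IP1, which binds PSME3, was at 83.0, 82.5, 70.6 and 76.4 CPM in control and at 38.3, 36.9, 36.3 and 36.5 CPM at 12 h (-1.08 ± 0.07, adjusted p = 2.8e-12), the time when PSME3 itself was highest. At 48 h PSME3IP1 was at 75.6 to 87.3 CPM and not called.

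A list of 21 genes that work with the proteasome (receptors, shuttles, deubiquitinases and factors that control its genes) had 14 called higher and 3 lower at 12 h, with a median of 0.44, and 7 higher and 1 lower at 72 h, beside the 32.9% and 36.5% of all genes at 12 h and 30.6% and 31.0% at 72 h. By library size the list had 9 higher and 5 lower at 12 h (21.7% and 50.1% of all genes). At 72 h it then had 5 higher and 2 lower (26.7% and 35.2% of all genes). UBE3C, a ubiquitin ligase that acts at the proteasome, had the largest rise. It was at 47.1, 58.1, 51.5 and 52.6 CPM in control and at 116, 116, 117 and 129 CPM at 12 h (1.19 ± 0.07, adjusted p = 3.2e-13). NFE2L1, the transcription factor that raises proteasome genes when proteasomes are impaired, was at 29.8, 32.4, 25.4 and 27.2 CPM in control and at 69.6, 59.6, 63.4 and 60.9 CPM at 72 h. It rose at each time, by 0.57, 0.51, 0.80 and 1.14 (adjusted p = 2.8e-12 at 72 h), with no overlap, and at 48 and 72 h most called subunit genes were lower.

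PAAF1, which binds the 19S ATPases and holds them off the core, had the largest fall of the list. It was at 13.2, 10.4, 12.5 and 9.95 CPM in control and at 4.85, 3.81, 4.25 and 3.78 CPM at 12 h (-1.46 ± 0.12, adjusted p = 2.5e-10), and was above control at 48 h (0.30 ± 0.11, adjusted p = 0.033). NGLY1, the deglycosylase that activates the NFE2L1 protein, was at 22.5, 19.8, 23.9 and 20.9 CPM in control and 15.6, 13.7, 16.4 and 13.4 CPM at 12 h (-0.56 ± 0.08, adjusted p = 1.6e-06). It was also lower at 24 h (-0.40) and was not called at 48 or 72 h.

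Some members share bases with other genes. At least 15% of the exon bases of 7 members are covered by a gene on the opposite strand, the most being 75.8% of PSMC1 by NRDE2, and at least 15% of those of 3 members by a gene on the same strand. Their values are uncertain to the extent that reads were shared. Of the 47 rows that are not protein coding, 17 had at least 1 count. In a fit chosen after the data were seen, adding the counts of pseudogenes to their parent genes left 33, 23, 18 and 29 members called at 12, 24, 48 and 72 h, against 34, 24, 18 and 27.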

How the data were processed

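RNA was sequenced from 20 libraries (Lexogen Corall mRNA, single-end reads) in 5 groups, assigned from the sample labels. The authors deposited whole-number counts per gene, with hg38 as the build, from the SARTools pipeline with DESeq2. The aligner, annotation release, counter and strand setting are not given in the sources used here. The authors also deposited normalised counts, taken as a score because their factor to the counts varies between genes. The deposited columns of the authors' own comparisons (fold changes and p-values) were not used.

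Counts were tested with edgeR 4.0.16 in R 4.3.3 (TMM, filterByExpr, robust quasi-likelihood fit of 5 group means, Benjamini-Hochberg adjustment over 16522 genes). Ratios within a library used a pseudocount of 0.5 and a two-sided exact permutation test, adjusted over 12 tests. The fit was tested on simulated data in which few genes were changed. That does not check the scaling where most genes are called, as at 12 h. Replicates are cultures of one line in one experiment, so p-values measure the spread between those cultures only.

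The named genes are the 6 catalytic genes, the 5 activators and inhibitor, the largest rise and fall of each other class, and fixed non-members, of which 1 is not reported here. Members and lists were chosen with earlier results of these data known. Alternatives covered scaling (DESeq2 1.42.0 size factors, upper quartile, library size), the DESeq2 test, filters, a replicate block, a 1.5-fold test, the deposited factors and leaving out each library. Gene positions are from GENCODE 29, and lengths are those of the principal transcript.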

Additional observations from a re-analysis of the deposited data

Results flagged for a closer look

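Among 105 sets of 4 libraries (21 named members in 5 groups), 5 held a library far from the other 3, where chance gives about 1 in 20. PSMB5 was at 39.18 CPM in control replicate 1 and at 33.72 to 33.93 CPM in the others. PSME2 was at 87.87 CPM in EGF 48 h replicate 3 (others 90.91 to 91.27), and PSMF1 was at 91.53 CPM in EGF 72 h replicate 2 (others 108.8 to 111.6). PSMA4 was at 51.83 CPM in EGF 24 h replicate 4 (others 41.29 to 43.01), and PSMB3 was at 104.8 CPM in EGF 72 h replicate 2 (others 111.8 to 113.2).

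Some genes were called in opposite directions from control at different times, and the times were then compared directly with edgeR under TMM scaling. Being chosen for those opposite calls, the pairs were bound to differ in that direction, so the p-values add no separate support. PSMB9 was higher at 72 h than at 12 h by 1.51 (adjusted p = 4.73e-09) and than at 24 h by 1.35 (adjusted p = 1.05e-07). PSME3 was lower than at 12 h at 48 h (-0.94, adjusted p = 3.19e-12) and at 72 h (-1.07, adjusted p = 5.4e-13). PSMB3 was lower at 72 h than at 12 h (-0.54, adjusted p = 1.53e-07). PSMD11 was lower at 48 h than at 12 h (-0.79, adjusted p = 7.06e-12) and than at 24 h (-0.45, adjusted p = 3.1e-07). PSMD1 was lower than at 12 h at 48 h (-0.81, adjusted p = 1.57e-09) and at 72 h (-0.69, adjusted p = 2.64e-08).

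A pair of genes that are not protein coding was above control at some times. The antisense gene PSMB8-AS1 first fell, by 1.29 at 12 h (adjusted p = 6.81e-08) and 0.90 at 24 h (adjusted p = 1.37e-05), and then rose by 0.40 at 48 h (adjusted p = 0.0189) and 0.37 at 72 h (adjusted p = 0.0228), with 108 to 160 counts in control and 125 to 202 at those later times. PSMG3-AS1 fell by 2.11 at 12 h (adjusted p = 3.15e-08), from 51 to 86 counts in control to 9 to 16. The pseudogene PSMD10P2 rose by 2.55, 2.08 and 3.11 at 24, 48 and 72 h (adjusted p = 0.000358, 0.004 and 2.12e-05), from 0 to 8 counts in control to 22 to 37 at 72 h.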

How the results depend on the processing

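Library-size scaling turned the sign of 18 members at 12 h, 10 of them called before, among them PSMB5 (-0.052), and called some in the direction opposite to their uncalled TMM change, among them PSMB8 (-0.23) and PSME2 (-0.23). Of called changes, the deposited factors per gene turned PSMD1 at 12 h (-0.20) and from 12 to 24 h (0.11), PSMD5 at 72 h (0.10) and PSMG3 at 72 h (-0.027). The cause was not tested. Tested against 1.5-fold, the members called were 2, 0, 0 and 1 at 12, 24, 48 and 72 h, and 1, 0 and 0 over the successive steps. Without a filter beyond 1 count, 10 were called at 48 h and 5 from 48 to 72 h, where library-size scaling called 16. At 48 h, 8 were called from the 8 libraries alone and 10 with the deposited factors. In the deposited normalised values PSMB9 to PSMB6 at 48 h was 0.22 and no longer called, and PSMB10 to PSMB7 at 12 h was -0.46 and called. Leaving out each library gave 30 to 36, 22 to 26, 12 to 23 and 24 to 29 members called at 12, 24, 48 and 72 h, and 13 to 18, 28 to 34 and 5 to 10 over the steps. The 5 came without EGF 48 h replicate 1, EGF 72 h replicate 2 or EGF 72 h replicate 3. Ratio differences then ran, at 12, 24, 48 and 72 h, from -0.26 to -0.08, -0.12 to 0.06, 0.56 to 0.75 and 0.63 to 0.81 for PSMB8 to PSMB5, from -1.15 to -0.91, -0.93 to -0.77, 0.20 to 0.34 and 0.71 to 0.80 for PSMB9 to PSMB6, and from -0.54 to -0.25, -1.05 to -0.77, -0.49 to -0.09 and -0.41 to -0.04 for PSMB10 to PSMB7. With 1 library left out, 69 of these ratio tests kept their result, 26 lost their call and 1 gained a call. Replicate numbers did not pair the samples: over 40 same-numbered pairs the median correlation of deviations was 0.0092, and 8 of 20 libraries correlated best with their own number. With the replicate block, 34, 24, 20 and 28 members were called at the 4 times and 17, 33 and 9 over the steps. Blocked ratio tests over 4 pairs cannot reach the threshold, and the ratios called without it (0.66 and 0.72, -1.01, -0.85, 0.28 and 0.77, and -0.96) were not called. PSMB9 and PSMB10, with 52 to 277 and 78 to 231 counts a library, are the members whose depth most limits the ratios.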
